A study of Homo sapiens with 6 samples.

Results

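The genes described here encode complex I of the mitochondrial respiratory chain, the NADH:ubiquinone oxidoreductase, and the NDUFAF proteins that help to build it. They are the rows of the deposited count table named NDUFA, NDUFAB, NDUFAF, NDUFB, NDUFC, NDUFS or NDUFV with a number, 46 of 63643 rows. Of these, 38 are named as subunits and 8 are NDUFAF assembly factors. The cells were HEK293T, an established human embryonic kidney line, labelled as deleted for GLO1 in both groups. GLO1 is the glyoxalase that starts the main route by which cells clear methylglyoxal (MGO), a reactive by-product of glycolysis. The MGO group received 60 µM MGO for 4 h and the Control group was left untreated, with 3 libraries of polyadenylated RNA in each. Whether the deleted cells are 1 clone, and whether the libraries came from separate cultures, was not given in the sources used here, so p-values measure a spread between libraries that may be technical. RNA was taken from whole cultures, so a change in every cell and a change in a share of the cells cannot be told apart.

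Complex I takes electrons from NADH, passes them through a flavin and a chain of iron-sulphur clusters to ubiquinone, and pumps protons across the inner membrane. Its catalytic core is encoded partly in the nucleus and partly in mitochondrial DNA, and is surrounded by many small accessory subunits. Assembly factors bring the modules together, modify single subunits or insert cofactors, and leave the finished enzyme. HEK293 cells have long been used to delete single subunits and follow where assembly stalls.

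Total counts lay between 128270160 and 138680220 in MGO libraries and between 117427883 and 157639431 in Control libraries. The factors that scale the libraries for composition (trimmed mean of M values, TMM) were 0.815 to 0.858 in MGO and 1.186 to 1.214 in Control, so the groups differed in composition and all changes below are relative to this scaling. Of 23109 genes tested with edgeR's quasi-likelihood test, 38.8% rose and 40.5% fell at an adjusted p under 0.05, and the median log2 fold change of MGO over Control was -0.02. GLO1 itself averaged 101.8 CPM (scaled counts per 1e6) in MGO and 37.3 CPM in Control, and since the missing part of the gene is unknown here, its counts do not check the deletion. Of 6 markers looked for in this line, KRT8, KRT18, VIM and CDH2 were well above 1 CPM in every library, while NEFM averaged 0.555 CPM in MGO and 1.46 CPM in Control and PAX2 averaged 1.71 CPM in MGO and 6.59 CPM in Control. Summed over 5 fibroblast markers, levels were 5.21 to 5.78 CPM in MGO and 14.2 to 15.4 CPM in Control, most of it COL1A1, with COL1A2, COL3A1 and DCN near 0. Summed over 5 blood cell markers, they were 0.445 to 0.809 CPM in MGO and 0.175 to 0.301 CPM in Control.

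Nearly all nuclear complex I transcripts were higher after MGO, and the subunits and their assembly factors rose by about the same amount. Of 36 subunits tested, 35 rose and 1, NDUFA13, fell, against 38.8% of all genes that rose and 40.5% that fell. All 8 NDUFAF genes rose. The median log2 fold change was 1.47 over the subunits, ranging from -0.53 to 1.99, and 1.47 over the NDUFAF genes, ranging from 0.33 to 2.16. Fold changes followed transcript length in these libraries; with the length trend of protein-coding genes removed, the medians were 0.65 over the subunits, of which 32 rose and 1 fell, and 0.77 over the NDUFAF genes, of which 6 rose, where 44.2% of protein-coding genes rose and 36.0% fell. Both ranges are wide compared with the standard error (SE) of a single gene, 0.06 to 0.15, so members differed among themselves by more than their errors. The other 2 subunits, NDUFS1 and NDUFB10, had too few counts to be tested. In each of the 44 members tested, all 3 MGO libraries stood apart from all 3 Control libraries. Over all genes, the MGO libraries all lay above the Control libraries for 39.7% and all below them for 41.8%.

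**Figure D1:**
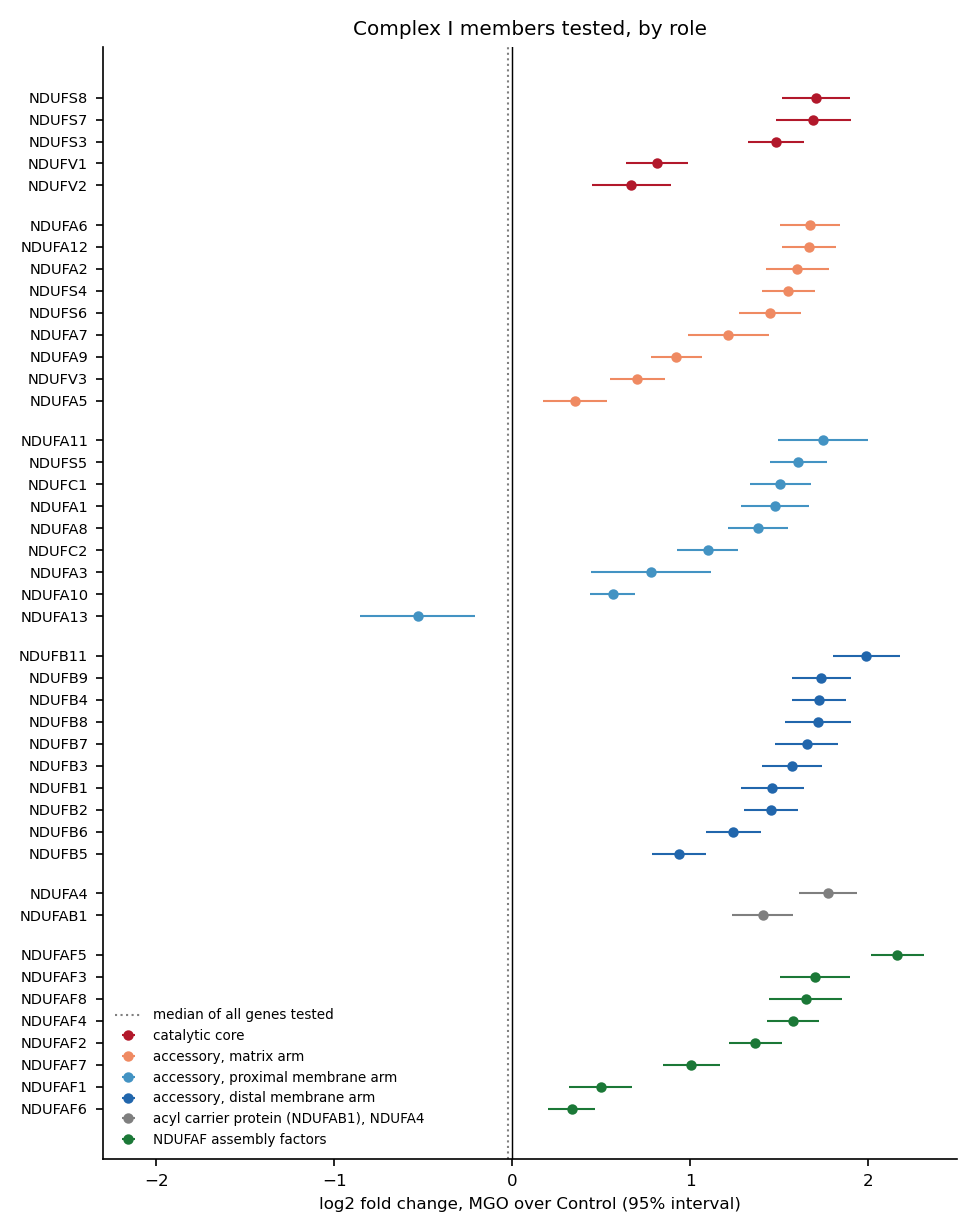
Log2 fold change of MGO over Control for 43 of the 44 members tested, 1 row a gene, grouped and coloured by role, with 95% intervals from the edgeR fit; the dotted line is the median of all genes tested, -0.02. All points lie to the right of 0 except NDUFA13 at -0.53, and both the subunits and the NDUFAF genes reach from under 0.5 to about 2.

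The stretches upstream of 5 members are shown, with log2 fold changes from 0.50 in NDUFAF1 to 2.16 in NDUFAF5. NDUFAF6, NDUFA5 and NDUFA13 lie below this range and are not shown. The 5 were picked because motifs of known regulators of respiratory genes differ between them. They do not show how motifs and fold changes go together. In the wider window searched below, NDUFB11, at 1.99, held none of the motifs, while NDUFA13, at -0.53, held a GABP match. Each stretch runs from 160 bases before to 10 bases after the RefSeq start on GRCh38.p14, 5′ to 3′ on the strand of the gene, with motif matches in capitals. NDUFAF5 (chr20:13784868-13785037, plus strand) and NDUFB4 (chr3:120596176-120596345, plus strand) hold 1 and 3 matches to the NRF1 motif, NDUFS3 (chr11:47578914-47579083, plus strand) holds 2 to the GABP motif, NDUFA10 (chr2:240025333-240025502, minus strand) holds 1 to the CREB motif and NDUFAF1 (chr15:41402487-41402656, minus strand) holds none.
NDUFAF5: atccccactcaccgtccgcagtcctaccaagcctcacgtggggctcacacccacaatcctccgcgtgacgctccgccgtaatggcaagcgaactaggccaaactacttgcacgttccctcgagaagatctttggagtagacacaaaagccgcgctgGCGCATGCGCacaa
NDUFB4: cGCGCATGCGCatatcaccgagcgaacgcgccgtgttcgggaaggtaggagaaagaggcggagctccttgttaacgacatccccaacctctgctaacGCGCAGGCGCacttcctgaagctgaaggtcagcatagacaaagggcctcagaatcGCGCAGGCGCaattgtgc
NDUFS3: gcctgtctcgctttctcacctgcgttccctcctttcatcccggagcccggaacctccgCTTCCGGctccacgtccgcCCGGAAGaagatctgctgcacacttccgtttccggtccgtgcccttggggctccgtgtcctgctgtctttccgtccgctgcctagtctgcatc
NDUFA10: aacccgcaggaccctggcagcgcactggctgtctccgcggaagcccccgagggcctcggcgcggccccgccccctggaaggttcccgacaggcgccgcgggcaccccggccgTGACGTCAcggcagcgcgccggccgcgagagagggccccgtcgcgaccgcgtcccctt
NDUFAF1: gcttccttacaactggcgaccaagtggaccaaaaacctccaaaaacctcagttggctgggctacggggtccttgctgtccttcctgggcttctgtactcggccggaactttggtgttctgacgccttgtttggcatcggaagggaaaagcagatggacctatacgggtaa

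Motifs were searched on both strands of the 300 bases from 250 before to 50 after the start, in the 39 members and 27305 genes for which RefSeq promoters were at hand. The NRF1 motif (GCGCA and GCGC with any 1 base between them) was in 17.9% of members' promoters and in 6.28% of all promoters. Members with it were NDUFA3, NDUFA8, NDUFA9, NDUFA11, NDUFA12, NDUFB4 and NDUFAF5, whose log2 fold changes reached from 0.78 in NDUFA3 to 2.16 in NDUFAF5; in NDUFA8, 2 matches overlap each other. The YY1 motif AAGATGGCG was in 12.8% of members' promoters and in 1.85% of all promoters, in each member just after the start, and the GABP motif CCGGAAG was in 15.4% of members' promoters and in 10.7% of all. The CREB motif TGACGTCA was in 5.13% of members' promoters and in 1.98% of all. The AP-1 motif TGANTCA was in 5.13% of members' promoters and in 7.76% of all, the ATF4 motif TGATGNAA in 2.56% of members' and in 3.67% of all, and the ERR motif TCAAGGTCA in none of the 39 and in 0.359% of all. These shares describe the letters in the window and are not evidence of binding.

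Among the NDUFAF genes, the largest rise was that of NDUFAF5 (chromosome 20, 13784950 to 13821582), which hydroxylates an arginine of the core subunit NDUFS7. It had 49.7, 49.6 and 45.5 CPM in the MGO libraries, against 11, 10.4 and 10.9 CPM in the Control libraries. This was 4.48-fold higher in MGO (log2 fold change of 2.16, SE 0.07; adjusted p = 8.11e-11 by edgeR), the largest of all 44 members tested. NDUFAF8, a small protein that binds and stabilises NDUFAF5, had 136, 168 and 169 CPM in MGO and 46.8, 49 and 54.9 CPM in Control (log2 fold change 1.65, SE 0.09). Their target NDUFS7 had 86.6, 113 and 112 CPM in MGO and 33.3, 32.2 and 31 CPM in Control (1.69, SE 0.10). The enzyme, its partner and its substrate thus all rose, with the first MGO library the lowest of its group for NDUFAF8 and NDUFS7 but not for NDUFAF5.

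NDUFAF3 and NDUFAF4, which act together in the early joining of the ubiquinone-binding module, rose by similar amounts. NDUFAF3 had 82.2, 106 and 102 CPM in MGO, against 29.6, 28.8 and 30.8 CPM in Control (log2 fold change 1.70, SE 0.09). NDUFAF4 had 131, 136 and 125 CPM in MGO, against 46.5, 42 and 42.6 CPM in Control (1.58, SE 0.07). Both were about 3-fold higher, with folds of 3.25 for NDUFAF3 and 2.99 for NDUFAF4. NDUFAF2, a relative of the accessory subunit NDUFA12 that precedes it during assembly, had 61.9, 63.3 and 59.4 CPM in MGO, against 25.6, 23 and 23.1 CPM in Control (1.37, SE 0.07). NDUFA12 had 182, 202 and 199 CPM in MGO and 64.8, 57.8 and 60.8 CPM in Control (1.67, SE 0.07).

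NDUFAF7, a methyltransferase of the mitochondrial matrix, rose less than these, with 53.9, 50 and 47.5 CPM in MGO and 27, 24 and 24.3 CPM in Control (log2 fold change 1.01, SE 0.07). The smallest rises belonged to NDUFAF1 and NDUFAF6. NDUFAF1, part of the membrane-arm assembly complex with ACAD9, ECSIT and TMEM126B, had 21, 24.4 and 21.2 CPM in MGO, against 17, 15 and 15.2 CPM in Control (0.50, SE 0.08, edgeR adjusted p = 0.000104). NDUFAF6, a relative of phytoene synthases needed early for the membrane arm, had 29.6, 30.8 and 30.7 CPM in MGO, against 24.4, 24.2 and 23.6 CPM in Control (0.33, SE 0.06, edgeR adjusted p = 0.000278). The groups stood apart in both genes, but with library size alone as the scaling both rises turn to values below 0, -0.03 for NDUFAF1 and -0.19 for NDUFAF6, the second with an edgeR adjusted p of 0.0118. That scaling moved the median of all genes by -0.53 and left 6 NDUFAF genes that rose and 1 that fell. With the length trend of protein-coding genes removed, neither passed, at 0.03 for NDUFAF1 and 0.06 for NDUFAF6, with edgeR adjusted p of 0.675 and 0.297.

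**Figure D2:**
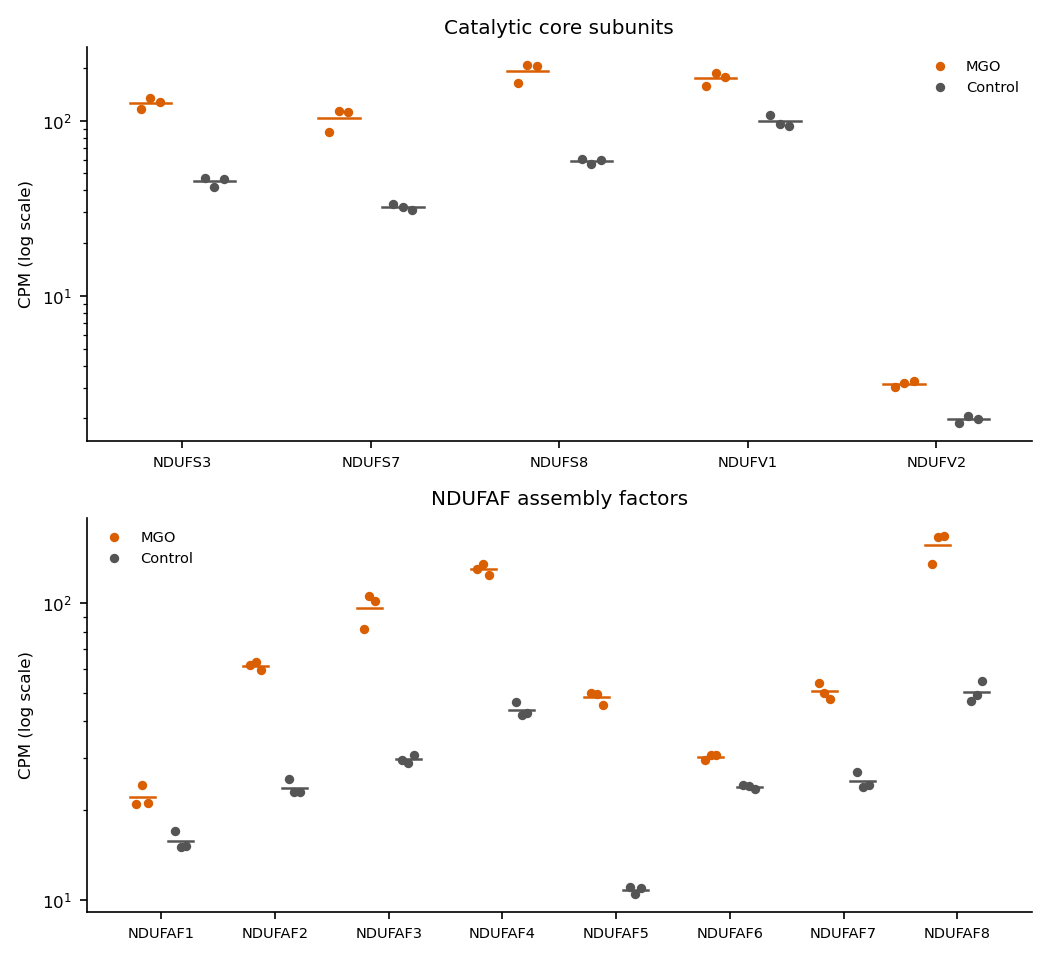
CPM on a log scale in each library for 5 of the 6 catalytic core subunits tested (top) and the 8 NDUFAF genes (bottom), 1 point a library and a bar at the group mean, MGO left of Control. The groups do not overlap for any gene; NDUFAF5 stands furthest apart, at 45.5 to 49.7 CPM in MGO and 10.4 to 11 CPM in Control, and NDUFAF6 least, at 29.6 to 30.8 CPM and 23.6 to 24.4 CPM.

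The catalytic core subunits fell into a pair of sets by the size of their rise. NDUFS8, NDUFS7 and NDUFS3, which build the part of the matrix arm next to the membrane, rose most. NDUFS8, which carries iron-sulphur clusters, had 165, 208 and 204 CPM in MGO, against 60.8, 56.3 and 59.4 CPM in Control (log2 fold change of 1.71, SE 0.09; adjusted p = 2.22e-09 by edgeR). NDUFS7, holder of the last cluster of the chain, is given above. NDUFS3 had 117, 134 and 127 CPM in MGO, against 46.9, 41.9 and 46.3 CPM in Control (1.48, SE 0.07). About 19.6% of the annotated exon bases of NDUFS3 are shared with PTPMT1 on the same strand, and PTPMT1 rose by 0.92 (SE 0.08).

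NDUFV1 and NDUFV2 rose less. NDUFV1, which binds the flavin and oxidises NADH, had 158, 187 and 177 CPM in MGO, against 108, 95.3 and 93.7 CPM in Control (log2 fold change 0.81, SE 0.08). The spread within a group was small beside this difference, with no MGO library near a Control library. NDUFV2, which carries a cluster beside the flavin, was counted at a far lower level, 3.03, 3.18 and 3.25 CPM in MGO and 1.87, 2.07 and 1.99 CPM in Control (0.67, SE 0.10, edgeR adjusted p = 5.4e-05). With the length trend of protein-coding genes removed it was at -0.07, with an edgeR adjusted p of 0.537. Its transcript matches the overlapping gene AP005263.1 and the pseudogene NDUFV2P1 closely. NDUFV2P1 averaged 2.86 CPM in MGO and 1.36 CPM in Control and rose by 1.08 (SE 0.11), and how the reads of NDUFV2 were divided between these rows was not tested.

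NDUFS1, the largest core subunit and the carrier of several iron-sulphur clusters, had 0, 1 and 0 counts in the MGO libraries and 2, 4 and 0 counts in the Control libraries. NDUFB10, an accessory subunit of the distal membrane arm, had 0, 3 and 2 counts in MGO and 1, 0 and 1 in Control. A floor of 3 counts corresponds to 0.019 to 0.0256 CPM per library, so both lie at about that limit in both groups, and no fold is given. Neither result is read as absence of the transcript: EEF1B2, a translation elongation factor gene that overlaps NDUFS1 on the opposite strand and that all cells use, was counted 0, 0 and 2 times in MGO and 1, 0 and 0 times in Control. For NDUFB10, GENCODE 29 gives no overlapping exon of another gene.

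All 9 accessory subunits of the matrix arm rose, by a median log2 fold change of 1.45. NDUFA6, a protein of the LYR family that binds the acyl carrier protein, and NDUFA12 rose most, by about the same amount. NDUFA6 had 12.1, 12.5 and 12.1 CPM in MGO, against 4.08, 3.68 and 3.78 CPM in Control (1.67, SE 0.08, edgeR adjusted p = 1.04e-09). NDUFA12 rose by 1.67 (SE 0.07). NDUFS4, whose loss causes Leigh syndrome, rose by 1.55 (SE 0.07), and NDUFS6, which binds zinc, by 1.45 (SE 0.08). NDUFA9, a relative of short-chain dehydrogenases, rose by 0.92 (SE 0.07), NDUFV3 by 0.70 (SE 0.07) and NDUFA7 by 1.21 (SE 0.10). This order depends on length. With the length trend over all genes removed, NDUFA9 was at 1.78, NDUFA12 at 1.46, NDUFA6 at 1.36, NDUFV3 at 1.065 and NDUFA7 at 0.99. NDUFA5 rose least, with 123, 108 and 99.4 CPM in MGO, against 92.2, 82.4 and 83.5 CPM in Control (0.35, SE 0.08, edgeR adjusted p = 0.00168), and it turned to -0.17 with library size alone as the scaling and was at 0.01 with the length trend of protein-coding genes removed. Its lowest MGO library, at 99.4 CPM, lay just above its highest Control library, at 92.2 CPM.

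Of the 9 accessory subunits of the proximal membrane arm, 8 rose and NDUFA13 fell, with a median of 1.38. NDUFA11 rose most, with 4.71, 4.42 and 4.98 CPM in MGO, against 1.61, 1.29 and 1.31 CPM in Control (log2 fold change of 1.75, SE 0.12; adjusted p = 2.29e-08 by edgeR). It shares 9.7% of its exon bases with a gene on the same strand that had 0 counts in every library. How reads were divided between them was not tested. NDUFS5, a protein with twin cysteine motifs of the intermembrane space, rose by 1.61 (SE 0.07), and the X-linked NDUFA1 by 1.48 (SE 0.09). NDUFA10, which has the fold of a nucleoside kinase, rose by 0.57 (SE 0.06), the smallest rise of this class.

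NDUFA13, also known as GRIM19 and described as a regulator of cell death and of STAT3, had 3.92, 2.9 and 3.41 CPM in MGO, against 6.08, 4.25 and 4.47 CPM in Control (log2 fold change of -0.53, SE 0.15; adjusted p = 0.00541 by edgeR). The highest MGO library lay just under the lowest Control library. In GENCODE 29, 21.0% of its exon bases (chromosome 19, 19515736 to 19529054, plus strand) are shared with the neighbouring YJEFN3 and with a readthrough gene on the same strand, ENSG00000258674. YJEFN3 had 453, 373 and 391 counts in MGO, against 3915, 3041 and 2597 in Control (-2.43, SE 0.20), and the readthrough gene had 74, 42 and 69 counts, against 350, 268 and 265 (-1.71, SE 0.25). The first Control library was the highest of its group in all 3 of these rows. The part of the shared exons in the fall of NDUFA13 was not tested.

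All 10 subunits tested of the distal membrane arm rose, by a median log2 fold change of 1.61, the highest median among the 4 groups of subunits by place. Their median transcript length, 677.5 nt, was also the shortest of the 4. With the length trend over all genes removed, the medians were 1.40 in this arm and 1.32 in the accessory subunits of the matrix arm. NDUFB11, encoded on the X chromosome and mutated in a syndrome of linear skin defects, had 349, 439 and 410 CPM in MGO, against 103, 95.4 and 103 CPM in Control (1.99, SE 0.09, edgeR adjusted p = 5.6e-10). This was the largest rise of any subunit before correction for length, 3.97-fold. With the length trend over all genes removed, NDUFB11 was at 1.67, below NDUFA9 of the matrix arm at 1.78. NDUFB9, a LYR protein like NDUFA6, rose by 1.74 (SE 0.08), NDUFB4 by 1.72 (SE 0.07) and NDUFB8, often blotted as a marker of the assembled complex, by 1.72 (SE 0.08). NDUFB5 rose least of this arm, with 40, 40.4 and 38.2 CPM in MGO, against 22.1, 19.2 and 20.7 CPM in Control (0.94, SE 0.07, edgeR adjusted p = 7.46e-08). NDUFAB1, the mitochondrial acyl carrier protein, had 160, 191 and 175 CPM in MGO, against 70.9, 62.1 and 65.2 CPM in Control (1.41, SE 0.08). NDUFA4, named as a subunit of complex I but since assigned to complex IV, had 351, 410 and 378 CPM in MGO, against 117, 104 and 112 CPM in Control (1.78, SE 0.08).

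Set side by side, subunits and NDUFAF genes had medians that differed by less than the spread between libraries, before any correction for length. The median log2 fold change of the subunits minus that of the NDUFAF genes was -0.0026, and -0.12 with the length trend of protein-coding genes removed. The same difference taken in single libraries, relative to the Control mean, was -0.013, 0.047 and 0.038 in MGO and 0.03, -0.029 and 0.025 in Control, with a within-group SD of 0.0324. A difference of this kind covers the middle of each list only, since 4 of 8 NDUFAF genes and 16 of 36 subunits had a log2 fold change of 1.5 or above and 2 NDUFAF genes and 1 subunit lay between 0 and 0.5. As a share of all counts in a library, the subunits took 0.393% ± 0.017 in MGO and 0.216% ± 0.014 in Control (SD, n = 3 each). The NDUFAF genes took 0.0498% ± 0.0014 in MGO and 0.0268% ± 0.00084 in Control (SD, n = 3 each). The ratio of the first share to the second was 7.89 ± 0.13 in MGO and 8.05 ± 0.28 in Control. This difference was smaller than the SD in Control but larger than the SD in MGO.

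**Figure D3:**
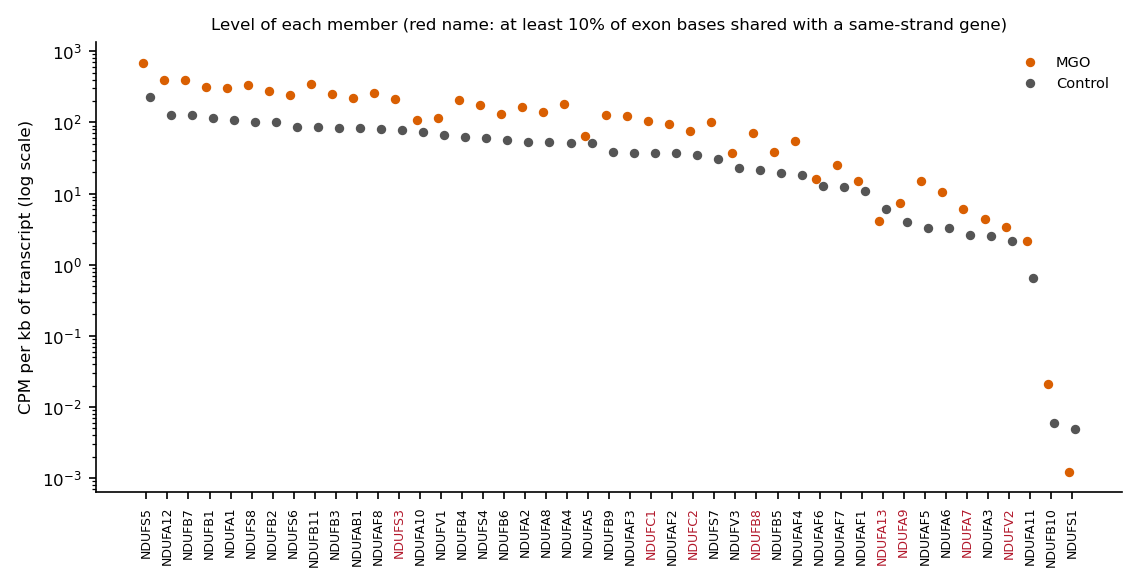
Mean CPM per kb of transcript on a log scale for 45 of the 46 members in MGO and Control libraries (n = 3 each), ordered by the Control level, with red names for the 8 members that share at least 10% of their exon bases with another gene on the same strand. NDUFS5 leads in both groups at 684 in MGO and 224 in Control, NDUFA13 is the one tested gene with MGO below Control, and NDUFB10 and NDUFS1 lie at the right end near 0.

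Per kb of transcript, which adjusts the levels of different genes for annotated length, the members spanned a wide range. The level of NDUFS5 was the highest, 684 ± 31 CPM per kb in MGO and 224 ± 18 CPM per kb in Control (SD, n = 3 each). The median level of the subunits was 121 CPM per kb in MGO and 53.2 CPM per kb in Control, above that of the NDUFAF genes at 39.7 CPM per kb in MGO and 15.6 CPM per kb in Control. Among the genes tested, the lowest level was that of NDUFA11, 2.18 CPM per kb in MGO and 0.651 CPM per kb in Control. NDUFV2 and NDUFA3 came next, at 3.39 and 4.37 CPM per kb in MGO and at 2.13 and 2.56 CPM per kb in Control. NDUFA11 shares 9.7% of its exon bases with a gene on the same strand, just under the 10% cut used here. It matches that gene over 496 nt at 95.2% identity. Why NDUFA11, NDUFV2 and NDUFA3 were counted so low was not tested, so their values are counted levels only.

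How reads of overlapping genes were counted touches 8 subunits that share at least 10% of their exon bases with a same-strand gene in GENCODE 29, namely NDUFA7, NDUFA9, NDUFA13, NDUFB8, NDUFC1, NDUFC2, NDUFS3 and NDUFV2. Of these, 7 were higher and 1 lower, and their median log2 fold change was 1.16. All 28 tested among the other 30 subunits rose, with a median of 1.51. Exons on the opposite strand overlap 49.1% of NDUFS7, 44.9% of NDUFB11 and 44.5% of NDUFA1, and the strand setting of the counting was not given in the sources used here. Over NDUFB11, the opposite gene RBM10 rose by 0.26 (SE 0.06), far less than NDUFB11 itself; over NDUFA1, RNF113A rose by 2.11 (SE 0.07), more than NDUFA1; over NDUFS7, both opposite genes fell.

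Fold changes in these libraries moved with transcript length, and most complex I transcripts are short. Of all protein-coding genes tested, 40.3% rose and 43.4% fell. Among them, 75.3% of those under 1000 nt rose and 13.0% fell, and their median log2 fold change was 1.16, while 11.1% of those of 4000 nt or more rose and 79.3% fell, with a median of -1.17. The median transcript length was 775.5 nt over the subunits and 1665 nt over the NDUFAF genes. Members under 1000 nt numbered 27, of which 26 rose, with a median log2 fold change of 1.48. The 9 members of 1000 to 2000 nt all rose, with a median of 0.81 against 0.62 for protein-coding genes of that length, of which 63.3% rose and 20.3% fell. The 7 members of 2000 to 4000 nt all rose, with a median of 1.58 and a range from 0.70 to 2.16, in a length class where 35.7% of protein-coding genes rose, 43.4% fell and the median was -0.09. NDUFA9, of 4502.5 nt, was the 1 member above 4000 nt.

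**Figure D4:**
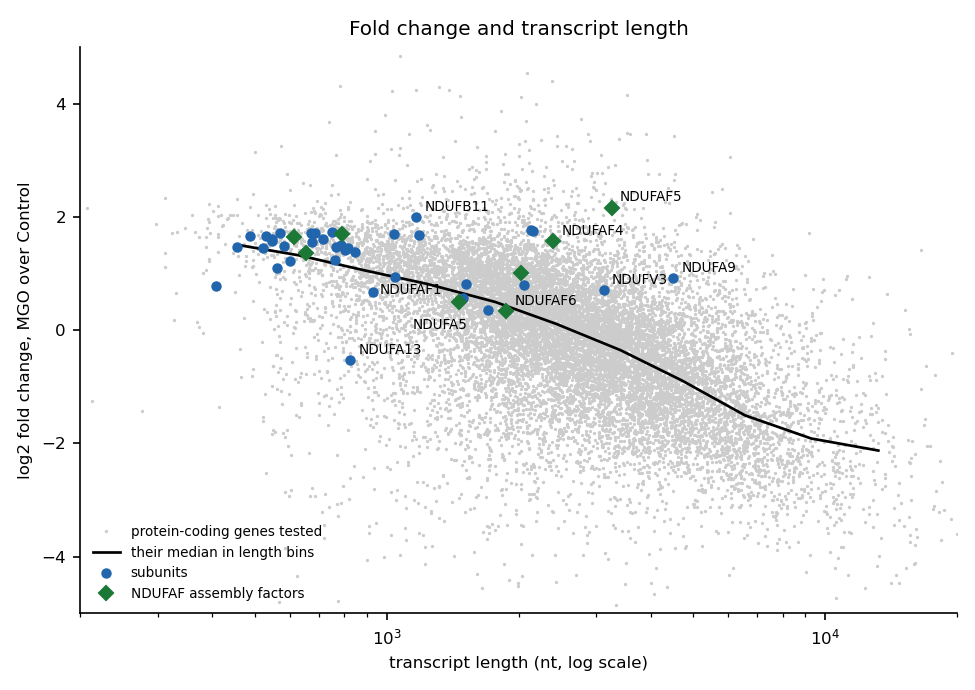
Log2 fold change of MGO over Control against transcript length on a log scale, with grey points for protein-coding genes tested, a line for their median in length bins, blue circles for subunits and green diamonds for NDUFAF genes. Most short members lie on or above the line, with log2 fold changes near 1.5, while NDUFAF5, NDUFAF4 and NDUFA9 lie above it and NDUFA13 below it.

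The length trend was removed from each library as an offset in the edgeR fit, first as fitted over all genes tested. This took out only part of the trend of short protein-coding genes, whose median log2 fold change was still 0.91 under 1000 nt. In that fit the median was 1.26 over the subunits, of which 34 rose and 1 fell, and 1.28 over the NDUFAF genes, which all rose, while over all genes 42.9% rose and 34.8% fell and the median was 0.12. When the trend was fitted over protein-coding genes alone, a choice made after the data were seen, their median under 1000 nt was 0.33, with 650 of 1203 genes that rose and 328 that fell. The 27 members under 1000 nt then had a median of 0.65, with 24 that rose and 1 that fell. Over all lengths, 32 of 36 subunits rose and 1 fell, with a median of 0.65 and a range from -1.32 in NDUFA13 to 1.74, and 6 of 8 NDUFAF genes rose, with a median of 0.77 and a range from 0.03 to 2.48. The subunits that no longer passed included NDUFA3 at -0.24, NDUFV2 at -0.07 and NDUFA5 at 0.01. The rise of the members was thus smaller by more than 1.5 times in this fit, and its direction stayed for most of them. Across members, log2 length and log2 fold change had a Pearson correlation of -0.23 (n = 44), against -0.53 over protein-coding genes (n = 14709); the genes share their libraries, and the values are a description. What makes fold change follow length here was not tested.

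The mitochondrially encoded core subunits, which are transcribed from mitochondrial DNA, also rose, all 7 of 7, against 38.8% of all genes tested. Their median log2 fold change was 1.80. With library size alone 5 rose, and with the length trend over all genes removed 6 rose. With that of protein-coding genes removed, 6 rose and 1 fell. MT-ND2 had 9785, 11156 and 13129 CPM in MGO, against 1796, 1771 and 1844 CPM in Control (2.65, SE 0.10, edgeR adjusted p = 2.39e-10). MT-ND1 rose by 2.16 (SE 0.09). The smallest rises were those of MT-ND5, at 0.67 (SE 0.08), and MT-ND6, at 0.37 (SE 0.09), MT-ND6 being encoded on the other strand and at -0.16 with library size alone as the scaling, at 0.16 with the length trend over all genes removed and at -0.59 with that of protein-coding genes removed. MT-ND5 was at 0.15 with library size alone, with an edgeR adjusted p of 0.0621. The levels come from polyadenylated RNA, so they reflect the part of these transcripts that the selection keeps.

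Of 13 assembly factors of complex I with other symbols, 10 rose, 1 fell and 2 did not pass. Their median log2 fold change was 1.04. All genes tested rose in 38.8% and fell in 40.5% of cases. With library size alone as the scaling, 9 of these factors rose and 3 fell. TMEM126A, which acts on the membrane arm, had 34.8, 38.8 and 37.8 CPM in MGO, against 11.1, 10 and 11.3 CPM in Control (1.78, SE 0.08). TMEM70, which serves both complex I and the ATP synthase, rose by 1.44 (SE 0.06). NUBPL, which delivers iron-sulphur clusters to complex I, fell, with 16.4, 17.4 and 16.5 CPM in MGO and 27.1, 26 and 26.9 CPM in Control (-0.67, SE 0.06, edgeR adjusted p = 8.38e-07). The partners of NDUFAF1 in the membrane-arm assembly complex differed among themselves. ECSIT rose by 1.33 (SE 0.08) and TMEM126B by 1.35 (SE 0.07), while ACAD9 was at 0.01 (SE 0.06, edgeR adjusted p = 0.862). LYRM2, a factor for the NADH-oxidising module, was at -0.04 (SE 0.06, edgeR adjusted p = 0.486), and at -0.88 with the length trend of protein-coding genes removed.

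**Figure D5:**
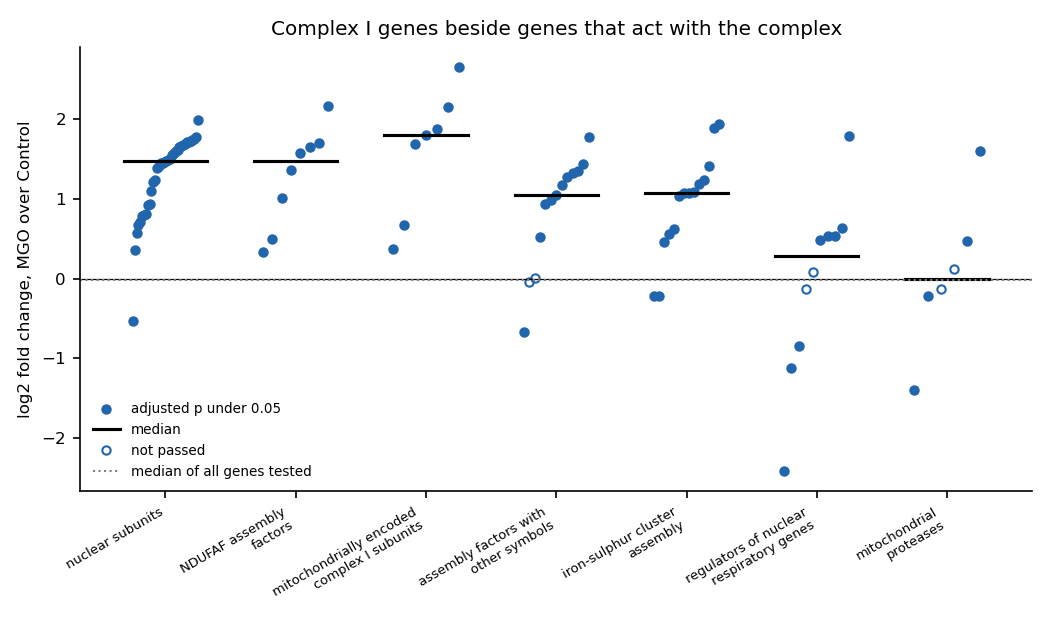
Log2 fold change of MGO over Control for each gene of 7 lists, with filled points for an adjusted p under 0.05, open points for genes that did not pass, a bar at each list's median and a dotted line at the median of all genes tested. Nuclear subunits, NDUFAF genes and mitochondrially encoded subunits have medians of 1.47, 1.47 and 1.80, while regulators of nuclear respiratory genes and mitochondrial proteases have medians of 0.28 and -0.01. Median transcript lengths of these lists, in the same order, were 775.5, 1665, 956, 3358.2 and 3129.5 nt. After removal of the length trend of protein-coding genes, not drawn here, the medians were 0.65, 0.77, 0.80, 0.33 and 0.39.

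Of 14 genes for building iron-sulphur clusters in mitochondria, 12 rose and 2 fell, with a median of 1.07. By comparison, 38.8% of all genes tested rose and 40.5% fell. For this list, 12 rose and 0 fell with upper quartile scaling, and 13 rose and 1 fell with the length trend over all genes removed. HSCB, the co-chaperone that hands clusters on, had 30.6, 34.7 and 32.7 CPM in MGO, against 9.09, 7.83 and 8.68 CPM in Control (log2 fold change 1.94, SE 0.08). FDX2, the ferredoxin of this pathway, rose by 1.89 (SE 0.21) at a level of 0.836 to 1.09 CPM in MGO and 0.184 to 0.307 CPM in Control. IBA57, a late-acting factor, was at -0.22 (SE 0.08, edgeR adjusted p = 0.0174). It did not pass without the second or without the third Control library, with edgeR adjusted p of 0.0747 and 0.0658, and with the length trend over all genes removed it turned to 1.24, with an edgeR adjusted p of 1.69e-08.

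Regulators of nuclear respiratory genes went in both directions, as did all genes tested, of which 38.8% rose and 40.5% fell. Of 10, 5 rose, 3 fell and 2 did not pass, with a median log2 fold change of 0.28; with library size alone 1 rose and 5 fell. TFB2M, a transcription factor of mitochondrial DNA, had 29.7, 29.5 and 26.8 CPM in MGO, against 8.61, 7.86 and 8.41 CPM in Control (1.79, SE 0.07), and the coactivator PPRC1 rose by 0.63 (SE 0.08). PPARGC1B, the coactivator PGC-1β, fell, with 4.04, 3.95 and 4.18 CPM in MGO and 19.4, 23.7 and 21.6 CPM in Control (-2.41, SE 0.09, edgeR adjusted p = 1.99e-10). GABPA, the DNA-binding subunit of GABP, fell by 1.13 (SE 0.08). Its transcript length is 4967 nt, and protein-coding genes of 4000 nt or more had a median of -1.17. With the length trend over all genes removed, GABPA was at -0.16, with an edgeR adjusted p of 0.043. In the same fit PPARGC1B was at -1.72, and PPRC1 rose by more than in the main fit. NRF1, whose motif stands in the promoters above, was at -0.14 (SE 0.06, edgeR adjusted p = 0.0687) and at 0.39 with the length trend over all genes removed, and GABPB1, the partner of GABPA, at 0.08 (SE 0.06, edgeR adjusted p = 0.234).

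Of 6 ATP-dependent proteases of mitochondria, which remove unassembled or damaged subunits, 2 rose, 2 fell and 2 did not pass, with a median of -0.01. The shares over all genes tested were 38.8% that rose and 40.5% that fell. Among the proteases, 1 rose and 4 fell with library size alone, and 3 rose and 1 fell with upper quartile scaling. With the length trend over all genes removed 4 rose and 1 fell, and with that of protein-coding genes removed 3 rose and 1 fell. CLPP, the peptidase of the matrix, had 143, 180 and 182 CPM in MGO, against 55.7, 55.7 and 56 CPM in Control (log2 fold change 1.60, SE 0.09). CLPX, its unfoldase, rose by 0.47 (SE 0.07) and turned to -0.05 with library size alone. SPG7, a subunit of the inner-membrane m-AAA protease, had 53.2, 49.6 and 53.3 CPM in MGO, against 151, 132 and 130 CPM in Control (-1.40, SE 0.07). Its partner AFG3L2 fell by 0.22 (SE 0.06), and was at 0.19 with the length trend over all genes removed.

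Pseudogenes of the same families, copies that can take reads of the genes they came from, were counted at low levels. Of 63 rows, 29 were at 0 throughout and 9 passed the low-count filter. Of these 9, 6 rose, 1 fell and 2 did not pass, where 38.8% of all genes tested rose and 40.5% fell. The summed level of the pseudogene rows was 5.09 to 5.75 CPM in MGO and 2.44 to 2.71 CPM in Control. That of the subunits was 4378 to 5024 CPM in MGO and 1702 to 1906 CPM in Control. The largest rise was in NDUFB1P1, with 110, 75 and 92 counts in MGO and 11, 24 and 13 counts in Control, and the fall was in NDUFB8P2, with 10, 13 and 9 counts in MGO and 47, 57 and 67 counts in Control.

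Many members followed the same order of libraries within a group. Over the 44 members tested, the second MGO library was the highest of its group for 35 and the first the lowest for 33, where over all genes tested the second was the highest for 31.7% and the first the lowest for 40.2%. The first Control library was the highest for 39 members and for 37.9% of all genes, and the second was the lowest for 39 members and for 32.1% of all genes. There were exceptions, such as NDUFA5, and the first MGO library was the highest for 4 members. Deviations of many members within a group therefore share their sign, and members are not independent of each other.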

How the data were processed

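Polyadenylated RNA from 3 MGO and 3 Control libraries of GLO1-deleted HEK293T cells was read as stranded paired-end libraries, per the labels' protocols. The deposited values are whole-number raw counts for each gene. The submitters' processing notes name STAR 2.7.0a and featureCounts 2.0.6 beside Trim Galore 0.6.10, FastQC 0.12.0, SAMtools 1.19.2, DESeq2 1.42.0 and hg38; the annotation, strand setting and treatment of reads with several matches were not given in the sources used here, so values of overlapping genes and close copies are uncertain. Of 63643 rows, 56790 matched GENCODE 29 (GRCh38), which gave coordinates and transcript length, taken as the median of its basic transcripts.

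edgeR 4.0.16 in R 4.3.3 tested the deposited counts (filterByExpr, TMM, quasi-likelihood test of MGO against Control, Benjamini-Hochberg adjustment over 23109 genes, threshold 0.05), after a check on simulated counts. SE is the absolute log2 fold change over the square root of F. Floors and intervals cover counting error or library spread only. No pair of libraries in a group agreed within sampling noise (lowest chi-square over degrees of freedom 3.77). Replicate numbers were treated as names: residuals of same-numbered libraries correlated at 0.06, -0.041 and 0.092. Named were all NDUFAF and core genes, the largest and smallest change of each other class and those against their class, members under 1 CPM, from each other list the 2 largest rises and falls past the threshold, and GLO1; further members are named for their role. The members and lists were chosen with earlier results of these data known. Some genes that the rule names are not reported here.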

Additional observations from a re-analysis of the deposited data

How the results depend on the processing

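Results were recomputed under 15 alternatives, namely upper quartile scaling, library size alone, RLE size factors, no filter and a 1 CPM filter on low counts, DESeq2 1.42.0, limma-voom (limma 3.58.1), a replicate block, removal of the length trend over all genes and leaving out each library, and under 1 more that was added after the data were seen, removal of the length trend of protein-coding genes. Counts of calls, with rises and falls added, stayed within 1.5 times, except that the 1 CPM filter left 1 pseudogene called instead of 7. Counts by direction moved by more in places. With library size alone, genes that rose went from 8964 to 5673 over all genes and from 5 to 1 among the regulators. Proteases that fell went from 2 to 4 with library size alone. Proteases that rose went from 2 to 4 with the length trend over all genes removed. The difference of medians between subunits and NDUFAF genes, -0.00261, has no stable sign: it was 0.000883 with limma-voom, -0.0239 with the length trend over all genes removed and -0.119 with that of protein-coding genes removed, and leaving out single libraries took it over -0.0319 to 0.0388, with 0.0388 without MGO replicate 1. Of these, -0.119 and 0.0388 moved by more than the SD between libraries. With the replicate block, 35 subunits rose and 1 fell, all 8 NDUFAF genes rose, the difference of medians was 0.000519 and 18168 of all genes were called against 18326 without it, so the block changed no call on these lists. Over all genes, 5673 rose and 12885 fell with library size alone, which shifted their median by -0.53; upper quartile scaling shifted it by 0.17, and removal of the length trend over all genes changed the fold change of a gene by a median of -0.10.

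Of 704 values for single members, 692 kept direction and call, 7 lost the call with the direction kept and 5 turned direction. Of those 5, only NDUFAF6 with library size alone passed the threshold, with an edgeR adjusted p of 0.0118. With library size alone NDUFA10 (0.039), NDUFA3 (0.25) and NDUFV2 (0.14) lost it, and NDUFA5 (-0.172), NDUFAF1 (-0.0289) and NDUFAF6 (-0.193) turned. NDUFA5 (0.105) lost it with the length trend over all genes removed; with that of protein-coding genes removed NDUFA5, NDUFAF1 and NDUFAF6 lost it, and NDUFA3 (-0.239) and NDUFV2 (-0.0706) turned. Among genes of the other lists, the direction turned with library size alone for ACAD9 (-0.515), CLPX (-0.0501), ESRRA (-0.0485), FOXRED1 (-0.00806), GABPB1 (-0.442), HSPA9 (-0.0684), MT-ND6 (-0.162) and YME1L1 (-0.411), with the length trend over all genes removed for AFG3L2 (0.193), GABPB1 (-0.219), IBA57 (1.24) and NRF1 (0.392), and with that of protein-coding genes removed for AFG3L2 (0.0883), GABPB1 (-0.386), IBA57 (1.32), ISCA1 (-0.00292), MT-ND6 (-0.591) and NRF1 (0.295). Not all of these passed after the turn, such as FOXRED1 with library size alone, at an edgeR adjusted p of 0.919. Library size alone differs from the other scalings by construction, and the cause of the other turns was not tested. NDUFS1 and NDUFB10 lay at about the floor of 3 counts per library, and the reason was not tested.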
